A study of Mus musculus with 4 samples.

Results

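In intact mouse back skin, fibroblast nuclei that carried Ccbe1 and Tmem132c transcripts were separated from other dermal fibroblast nuclei by a rule on single barcodes. A barcode (the tag that marks 1 droplet, here taken as 1 nucleus) was a member when it held at least 200 detected genes and at most 5% mitochondrial counts, and when at least 2 of the 6 genes Ccbe1, Ptchd4, Tmem132c, Unc5d, Lrrtm4 and Adarb2 had a UMI, the molecular tag that stands for 1 captured transcript. It also had to carry fewer than 2 of C7, A930009A15Rik, Plcxd3, Aox3, Gm32647 and Lgr5, and fewer than 2 of Spag17, Nxph1, Gm765, Gabra3, Sntg1 and Gpc3. This gave 629 members among the 16733 barcodes kept from unwounded skin, 323 in mouse 1 and 306 in mouse 2, and 23448 barcodes were kept in the whole series. Since measured UMIs chose the members, the 18 genes of the rule are given below as a description and stayed out of every test.

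The data were counts of nuclear RNA from whole back skin, with 1 droplet library per mouse and all cell types of the skin together. The unwounded group was 2 C57BL/6 mice, wild type and aged 8 weeks, of the common inbred strain. The wounded group was 2 further mice of the same genotype, strain and age, killed for tissue 1 day after an excisional wound through the full skin depth, and they enter only a description at the end. The sex of the mice is not given in the sources used here. Only RNA retained in nuclei was sampled, so levels are not those of whole cells. In what follows, paired values are for mouse 1 and mouse 2, in that order.

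Dermal fibroblasts make the collagen and elastic matrix of the skin and differ with depth. Papillary fibroblasts lie beneath the epidermis and around hair follicles and respond to Wnt ligands, reticular fibroblasts build the thick collagen bundles deeper in the dermis, and adventitial or fascial fibroblasts surround vessels and the loose tissue beneath. Wnt proteins bind Frizzled receptors with the co-receptors Lrp5 and Lrp6 and stabilise beta-catenin, which acts with Lef1 and related factors to switch on targets such as Axin2 and Nkd2, or they act through Ror receptors independently of beta-catenin. Ccbe1 is a secreted protein that helps to process the lymphatic growth factor Vegfc, and Tmem132c is a membrane protein of the Tmem132 family.

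Members made up 4.64% of kept barcodes in mouse 1 (95% Wilson interval 4.17 to 5.16) and 3.13% in mouse 2 (2.80 to 3.5). Their median depth was 1553 and 1103.5 UMIs, against 777 and 443 UMIs in barcodes that met none of the 3 gates, so a rule that asks for 2 detected genes drew deeper nuclei. When each barcode was thinned to 500 UMIs, leaving out 533 and 5240 shallower barcodes, the share was 2.13% and 2.96%, and the order of the mice turned around. No order between the mice is therefore read. The members held 590281 and 412704 UMIs in all, and the floor of 3 counts, below which a gene with no count may still lie, was 5.08 and 7.27 CPM (each group's UMIs scaled to a common total, as counts per 1e+06).

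Tmem132c and Ccbe1 were the gate genes found in most members. Tmem132c had a UMI in 78.3% and 80.7% of members and Ccbe1 in 60.1% and 59.5%. Lrrtm4, a synaptic adhesion protein, followed with 47.4% and 44.4%, and Adarb2, an RNA-binding relative of the editing enzymes, with 27.6% and 32.4%. Unc5d, a netrin receptor, was found in 22.0% and 12.1%, and Ptchd4, a Patched-related membrane protein, in 17.0% and 14.7%. In barcodes with at least 3 keratinocyte markers, at median depths of 1205 and 693 UMIs, Tmem132c had a UMI in 3.24% and 5.51% and Ccbe1 in 1.85% and 1.69%. Barcodes that met any of the 3 gates were left out of that class, which can lower these shares. The part of free RNA was not tested. The pair of Ccbe1 and Tmem132c was present together in 152 and 141 members. Most members, 208 and 207, stood just inside the rule with 2 of its genes, and 826 and 1317 barcodes stood just outside with 1. Those just inside had medians of 1386 and 878 UMIs and those just outside 915 and 557.

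Taken as a whole, members carried the fibroblast markers. All 10 fibroblast markers were detected in both mice, and together they reached 15696 and 14834 CPM in members, close to the 15933 and 16257 CPM of C7-gated nuclei. Ungated barcodes held 10439 and 11837 CPM of the same genes, and barcodes with keratinocyte markers 4344 and 5474 CPM. Members of 2 small clusters described below held less than members as a whole. These sums were 7113 and 11789 CPM in the Gpc5 cluster, below ungated barcodes, and 13003 and 11541 CPM in the Cadps cluster. Of the lists of other cell types given here, skeletal muscle and melanocyte markers had the highest sums in members. Sums of the lymphatic endothelial, sebocyte and adipocyte lists are not given here. Keratinocyte markers summed to 168 and 230 CPM, blood endothelial markers to 74.5 and 77.5 CPM, smooth muscle and pericyte markers to 94.9 and 65.4 CPM, and Schwann cell markers to 100 and 121 CPM, with no count of Sox10. The T cell receptor genes Cd3e, Cd3g, Cd3d and Trac had no count in either mouse. The melanocyte list summed to 1189 and 1001 CPM in members, below the 1531 and 1315 CPM of C7-gated nuclei. Nearly all of it was Mitf, a factor of pigment and other cells, with 1184 and 998 CPM, and the pigment genes Pmel, Tyr and Mlana had no count in either mouse. Dermal sheath and arrector markers summed to 296 and 233 CPM in members against 163 and 136 CPM in C7-gated nuclei, with Acan and Actg2 at 0 in both mice. Skeletal muscle markers reached 1128 and 1199 CPM, below the 8211 and 5897 CPM of ungated barcodes, and macrophage markers 444 and 475 CPM against 306 and 319 CPM in C7-gated nuclei. Dermal papilla markers, which label the signalling centre at the base of the hair follicle, summed to 100 and 133 CPM, against 12.5 and 19.0 CPM in C7-gated nuclei. Of the papilla's 8 markers, Corin, Sostdc1, Alx4 and Sox18 had no count in mouse 1 and Sostdc1 none in mouse 2. Wif1 had 1 UMI and Hhip 2 UMIs in members of each mouse. The rest of the mouse 1 sum was Ntng1 and, to a smaller extent, Rspo3. Ntng1 is also on the neural adhesion list used below. The parts of macrophage, muscle, sheath, papilla, lymphatic endothelial, sebocyte and adipocyte transcripts in the results below were not tested. The 2 unwounded libraries shared 29 kept barcodes, none of them members.

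Members were compared with 2 other fibroblast groups of the same skin, gated in the same form. The first was 1611 and 841 nuclei with at least 2 of the C7 genes (C7 nuclei). The second was 85 and 133 nuclei with at least 2 of the Spag17 genes (Spag17/Gpc3 nuclei). Each nucleus had fewer than 2 genes of each other set, so it could still carry a gene of another set. With no such gene allowed, there were 34 and 57 Spag17/Gpc3 nuclei, 1170 and 590 C7 nuclei and 190 and 199 members. UMIs were summed per mouse and gate and tested with edgeR's quasi-likelihood test, the mouse as a block and Benjamini-Hochberg adjustment over 7321 genes. The question was which transcripts set the members apart from other dermal fibroblasts. Against the mean of the other 2 gates, 481 genes were higher (6.57% of those tested) and 447 lower (6.11%). All 928 had the same sign in each mouse, which a call made on these same 2 mice largely requires. Against C7 nuclei alone 385 genes were higher (5.26%) and 393 lower (5.37%), and DESeq2 gave 158 and 102. A fit without the mouse as a block gave 281 and 233 there. Against Spag17/Gpc3 nuclei 442 were higher (6.04%) and 478 lower (6.53%). Members lay above both other gates in both mice in 984 genes (13.4%) and below them in 746 (10.2%). The p-values set a difference between gates against the spread left after the mouse block, with 2 residual degrees of freedom and variance estimates that borrow across genes. They are no evidence that the groups exist, because the gates were chosen on these nuclei. The comparisons against each gate share the members' counts. Levels of tested genes are in CPM of UMIs outside the 18 gate genes.

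The 12 genes of largest rise included a vesicle priming factor, a cadherin and a Wnt-responsive transcription factor, each with few or no counts in the other fibroblast gates. Cadps, which primes dense-core vesicles for release (chromosome 14, 12372563 to 12823079, GRCm38), had 180 and 231 CPM in members, 6.07 and 6.03 CPM in C7 nuclei and no count in Spag17/Gpc3 nuclei. Its log2 difference from C7 nuclei was 4.94 ± 0.27 (SE; adjusted p = 2.33e-12), and members were at least 19.8-fold above Spag17/Gpc3 nuclei, taken at a floor of 3 counts over both mice. The membrane protein gene Tmem132d, a relative of the gate gene Tmem132c, reached 182 and 99.7 CPM against 4.05 and 2.01 CPM in C7 nuclei and 1 count in all Spag17/Gpc3 nuclei. For Tmem132d the log2 difference from C7 nuclei was 5.4 ± 0.33 (adjusted p = 9.6e-12). Cdh6, a cell adhesion cadherin (chromosome 15, 13028701 to 13173675), had 91.8 and 87.6 CPM in members against 0.809 and 2.01 CPM in C7 nuclei and no count in Spag17/Gpc3 nuclei, with a log2 difference from C7 nuclei of 6.05 ± 0.46 (adjusted p = 4.38e-10). The rule that chose the 12 genes asked for members above both other gates in both mice, so that separation is not a result.

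Elfn2, a leucine-rich repeat protein of synapses, was counted in neither of the other gates and had 22.1 and 31.6 CPM in members, at least 30.1-fold above C7 nuclei and at least 2.56-fold above Spag17/Gpc3 nuclei, whose small total makes the second bound loose. Such a gene reaches the count needed for a test through members alone. The same holds for other genes low or at 0 in both other gates. Among them are Cadps, Tmem132d, Cdh6, Lef1, Adcy1, Lamc3 and Igfbp2, and below Wnt5a, Nkd2, Bmp5 and Fgfr4. Their differences and p-values are given as description and not as support. Lef1, the nuclear partner of beta-catenin (chromosome 3, 131110471 to 131224356), had 93.5 and 21.9 CPM in members and 5.66 and 3.01 CPM in C7 nuclei, a log2 difference of 3.77 ± 0.41 (adjusted p = 2.26e-07), and no count in Spag17/Gpc3 nuclei. The mice differed widely in Lef1. Adcy1, a calcium-stimulated adenylyl cyclase, had 105 and 112 CPM in members against 19.4 and 19.1 CPM in C7 nuclei (log2 difference 2.43 ± 0.26), and members were at least 10.7-fold above Spag17/Gpc3 nuclei. Lamc3, the laminin gamma-3 chain, had 74.8 and 48.7 CPM against 8.50 and 0 CPM in C7 nuclei (log2 difference 3.49 ± 0.44). Igfbp2, a carrier of insulin-like growth factors, had 34.0 and 38.9 CPM against 3.24 and 5.02 CPM (log2 difference 3.12 ± 0.52). These 3 had no count in Spag17/Gpc3 nuclei. The other rises in the leading 12 were Gldn, Fam189a1, Vstm2a and Zfhx2os, with log2 differences from C7 nuclei of 4.16, 3.04, 1.93 and 3.82. Zfhx2os is antisense to Zfhx2, and whether reads were counted by strand is not given in the sources used here, so that gene is uncertain.

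**Figure D1:**
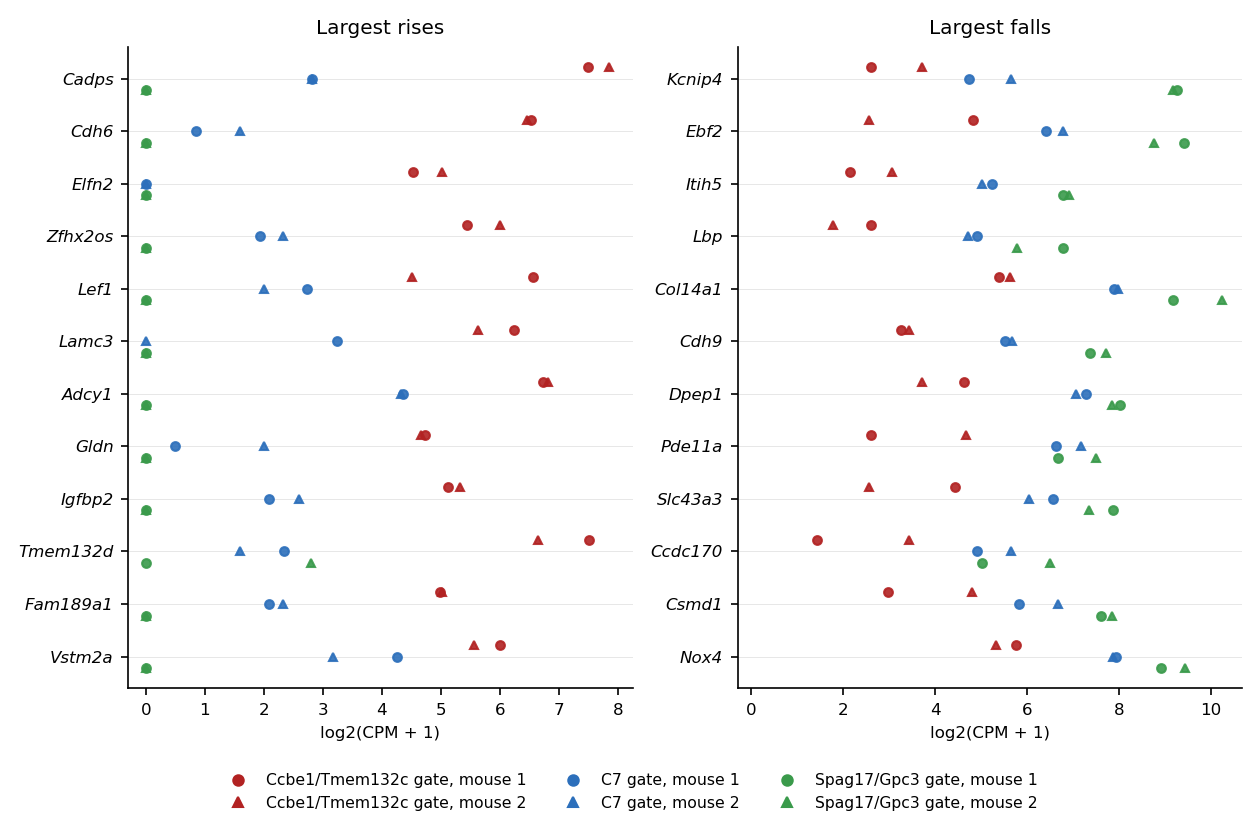
Levels of the 12 genes of largest rise (left) and the 12 of largest fall (right) as log2(CPM + 1), with circles for mouse 1 and triangles for mouse 2, members in red, C7 nuclei in blue and Spag17/Gpc3 nuclei in green. Members lie to the right of both other gates for every gene on the left, from 22.1 CPM (Elfn2) to 231 CPM (Cadps), and to the left for every gene on the right, where Col14a1 has 40.8 and 48.7 CPM in members against 236 to 1203 CPM elsewhere. The rule that chose these genes required this placement.

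The 12 genes of largest fall included a fibril-associated collagen, an oxidase and a preadipocyte transcription factor. Col14a1, a collagen that sits on the surface of fibrils, had 40.8 and 48.7 CPM in members, 236 and 252 CPM in C7 nuclei and 576 and 1203 CPM in Spag17/Gpc3 nuclei (log2 difference from their mean -3.41 ± 0.22, adjusted p = 1.21e-11). Nox4, an oxidase that makes hydrogen peroxide, had 52.7 and 38.9 CPM against 244 and 234 and against 482 and 688 CPM (-3.02 ± 0.20, adjusted p = 1.83e-11). Ebf2, a transcription factor of preadipocytes, had 27.2 and 4.87 CPM against 84.1 and 109 and against 677 and 431 CPM (-3.67 ± 0.32, adjusted p = 3.06e-09). That members lay below both other gates in both mice was again part of the rule that chose the 12 genes. Kcnip4, a potassium channel partner, had 5.10 and 12.2 CPM in members against 25.5 and 49.2 CPM in C7 nuclei, and 615 and 575 CPM in Spag17/Gpc3 nuclei. Dpep1, a membrane dipeptidase, had 23.8 and 12.2 CPM against 155 and 132 and against 257 and 227 CPM. The phosphodiesterase gene Pde11a had 5.10 and 24.3 CPM against 98.3 and 143 and against 101 and 180 CPM. The remaining falls of the leading 12 were Itih5, Lbp, Cdh9, Slc43a3, Ccdc170 and Csmd1, with log2 differences from the mean of -3.63, -3.53, -3.37, -3.22, -3.21 and -3.02.

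Most tested papillary fibroblast genes were higher in members. Of 23 listed genes 15 were tested, 10 were higher than the mean of the other gates, none was lower and 5 did not pass, with a median log2 difference of 2.06 against 0.02 over all genes tested. Against C7 nuclei 13 of the 15 were higher and none lower, and against Spag17/Gpc3 nuclei 10 were higher and 1, Ntn1, was lower (-0.57, adjusted p = 0.0281). The list's summed level was 2962 and 2610 CPM in members, 1130 and 1103 CPM in C7 nuclei and 1190 and 1245 CPM in Spag17/Gpc3 nuclei. For 11 of the 15 genes members lay above both gates in both mice, against 13.4% of all genes tested. List counts against the mean, here and below, stand beside 6.57% of all genes tested higher and 6.11% lower. Named genes said below to lie outside both gates stand beside 13.4% of all genes above and 10.2% below. Those genes were named for small p or after their values were seen, so their separation is no separate result.

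Among the papillary genes, Trps1, a transcription factor of the hair follicle mesenchyme, had 986 and 742 CPM in members, 268 and 270 CPM in C7 nuclei and 132 and 83.8 CPM in Spag17/Gpc3 nuclei (log2 difference from their mean 2.34 ± 0.14, adjusted p = 5.75e-12). Ptk7, a Wnt co-receptor of planar polarity, had 105 and 134 CPM against 24.7 and 38.2 CPM in C7 nuclei (log2 difference 1.91 ± 0.24) and against 2 counts in Spag17/Gpc3 nuclei. Col23a1, a membrane collagen, had 165 and 129 CPM against 29.1 and 25.1 and against 15.6 and 29.9 CPM (2.51 ± 0.26). Entpd1, the ectonucleotidase CD39, had 109 and 185 CPM against 34.8 and 43.2 and against 15.6 and 53.9 CPM (1.90 ± 0.25). Members stood clear of both other gates in all 4 genes. Tspan18 passed with a smaller log2 difference of 0.88 ± 0.20. Lrig1, a feedback inhibitor of growth factor receptors, did not pass, with 262 and 263 CPM in members, 225 and 241 CPM in C7 nuclei and 335 and 239 CPM in Spag17/Gpc3 nuclei. Ntn1, the guidance cue netrin-1, did not pass against the mean of the gates (log2 difference 0.09, adjusted p = 0.770), since its 298 and 294 CPM lay between 184 and 154 CPM in C7 nuclei and 443 and 431 CPM in Spag17/Gpc3 nuclei. The values for Cav1, Col18a1 and Col7a1 were 0.13, 0.66 and 0.97 (adjusted p = 0.846, 0.246 and 0.0632).

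**Figure D2:**
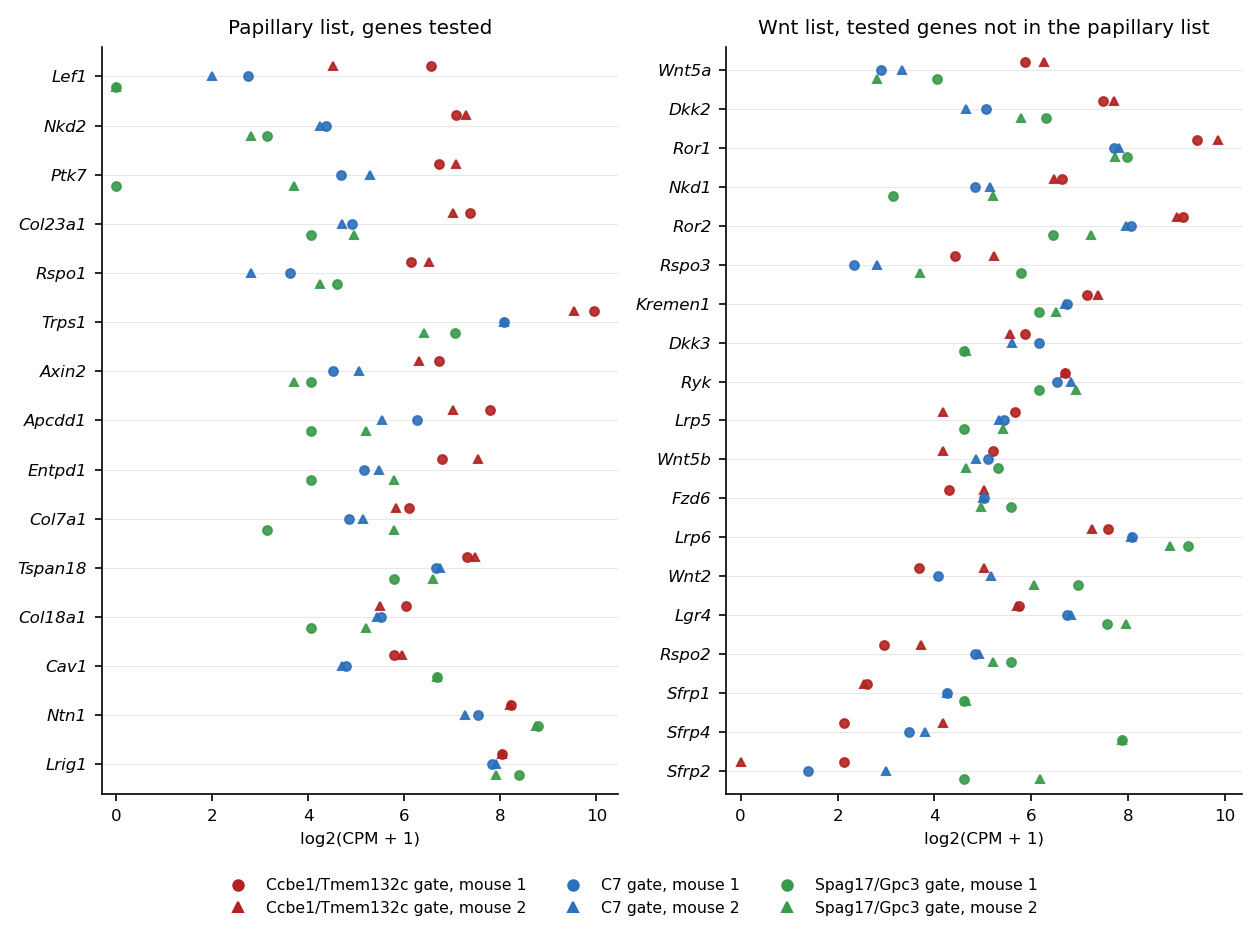
Levels of the tested papillary genes (left) and of the tested Wnt genes that are not on the papillary list (right) as log2(CPM + 1), with circles for mouse 1 and triangles for mouse 2, members in red, C7 nuclei in blue and Spag17/Gpc3 nuclei in green. Red points lie to the right for Nkd2, Trps1, Ror1 and Dkk2, overlap the others for Lrig1, and lie to the left for Lgr4 and Lrp6.

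Wnt pathway genes differed in both directions, with the ligands Wnt5a and Rspo1, the Ror receptors and the feedback inhibitors Nkd1, Nkd2, Axin2 and Apcdd1 higher in members and Rspo2, Lgr4, Lrp6, Sfrp1 and Sfrp4 lower. Of 47 listed genes 24 were tested, 11 were higher, 5 were lower and 8 did not pass, with a median log2 difference of 0.57. The papillary list shares Rspo1, Axin2, Lef1, Nkd2 and Apcdd1 with it, so the counts of the lists are not separate evidence. Summed over the list, members held 2991 and 3077 CPM, C7 nuclei 1561 and 1553 CPM and Spag17/Gpc3 nuclei 2124 and 2161 CPM.

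Among the ligands, Wnt5a, which signals through Ror receptors, had 57.8 and 75.4 CPM in members, 6.47 and 9.04 CPM in C7 nuclei and 15.6 and 5.99 CPM (3 counts) in Spag17/Gpc3 nuclei. Its log2 difference from C7 nuclei was 3.05 ± 0.35 (adjusted p = 4.24e-07), and the ratio to Spag17/Gpc3 nuclei was 6.41 (95% counting interval 2.10 to 31.9). Rspo1, a secreted amplifier of Wnt signals, had 69.7 and 90.0 CPM against 11.3 and 6.03 and against 23.3 and 18 CPM (log2 difference from the mean 2.45 ± 0.35, adjusted p = 8.58e-06). Its relative Rspo2 was lower in members, with 6.80 and 12.2 CPM against 27.5 and 29.1 and against 46.7 and 35.9 CPM (-1.90 ± 0.49, adjusted p = 0.00897). Rspo3 had 20.4 and 36.5 CPM in members, 4.05 and 6.03 CPM in C7 nuclei and 54.5 and 12.0 CPM in Spag17/Gpc3 nuclei, and did not pass against the mean (adjusted p = 0.177).

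Among the receptors, Ror1 had 680 and 924 CPM in members, 208 and 222 CPM in C7 nuclei and 249 and 209 CPM in Spag17/Gpc3 nuclei (1.82 ± 0.13, adjusted p = 5.55e-11). Ror2 had 556 and 511 CPM against 265 and 248 and against 85.6 and 150 CPM (1.57 ± 0.15, adjusted p = 7.95e-09). The R-spondin receptor Lgr4 had 52.7 and 51.1 CPM against 106 and 112 and against 187 and 245 CPM (-1.58 ± 0.22, adjusted p = 5.55e-06). Lrp6 had 190 and 151 CPM against 271 and 263 and against 599 and 461 CPM (-1.14 ± 0.14, adjusted p = 1.21e-06). All 4 receptors separated the members from both other gates without overlap, the Ror genes above and Lgr4 and Lrp6 below. Of all genes tested 13.4% lay above and 10.2% below in this way.

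Inhibitors and targets of the pathway were mostly higher. Nkd2, a feedback inhibitor, had 134 and 156 CPM in members against 19.8 and 18.1 CPM in C7 nuclei (log2 difference 2.83 ± 0.23, adjusted p = 1.37e-09) and 2 counts in Spag17/Gpc3 nuclei, a ratio of 21.2 (5.75 to 176). Axin2, a direct target that limits beta-catenin, had 105 and 77.8 CPM against 21.8 and 32.2 and against 15.6 and 12.0 CPM (2.30 ± 0.34). Apcdd1, a surface inhibitor, had 219 and 129 CPM against 75.6 and 45.2 and against 15.6 and 35.9 CPM (2.06 ± 0.25). Dkk2, a secreted ligand of Lrp6 and Kremen receptors, had 177 and 207 CPM against 32.4 and 24.1 and against 77.8 and 53.9 CPM (2.10 ± 0.21, adjusted p = 4.4e-08). Members again lay above both gates in both mice for these 4 genes, and Nkd1 and Kremen1 also passed (1.80 and 0.70). The Frizzled-related inhibitors went the other way: Sfrp1 had 5.10 and 4.87 CPM against 18.2 and 18.1 and against 23.3 and 23.9 CPM (-2.04 ± 0.66, adjusted p = 0.0427). Sfrp4 had 3.40 and 17.0 CPM against 10.1 and 13.1 CPM in C7 nuclei, where it did not pass (adjusted p = 0.807), and 233 CPM in Spag17/Gpc3 nuclei of either mouse.

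Genes of deeper fibroblasts were lower in members or did not pass. Of 11 tested reticular and hypodermal genes, 4 were lower than the mean of the gates and none higher, with a median log2 difference of -1.18. Plac8 had no count in members of either mouse, 10.1 and 5.02 CPM in C7 nuclei and 156 and 120 CPM in Spag17/Gpc3 nuclei. Gpx3, a secreted antioxidant enzyme, had 15.3 and 14.6 CPM in members against 43.7 and 39.2 and against 124 and 114 CPM (-2.25 ± 0.34, adjusted p = 2.23e-05). Mfap5 and Clec3b also passed against the mean (-1.61 and -0.80) but not against C7 nuclei (adjusted p = 0.769 and 0.0616). The summed level of the reticular list was 258 and 297 CPM in members, 341 and 302 CPM in C7 nuclei and 864 and 844 CPM in Spag17/Gpc3 nuclei, so most of its distance was from the last. Thy1, which is on the same list, had 22.1 and 21.9 CPM in members against 4.05 and 2.01 CPM in C7 nuclei (2.63 ± 0.63, adjusted p = 0.00513) and did not pass against the mean (1.85, adjusted p = 0.056).

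Fascia and adventitial genes were lower in 7 of 13 tested cases (6.11% over all genes tested) and higher in none, with a median log2 difference of -0.94. Anxa3, a membrane-binding annexin, had 35.7 and 53.5 CPM in members, 157 and 141 CPM in C7 nuclei and 443 and 455 CPM in Spag17/Gpc3 nuclei (-2.61 ± 0.21, adjusted p = 6.48e-10). Pi16, a marker of adventitial fibroblasts, had 51.0 and 119 CPM against 123 and 182 and against 529 and 718 CPM (-1.93 ± 0.18, adjusted p = 5.93e-09). Sema3c, a secreted guidance cue, had 150 and 190 CPM against 331 and 525 and against 949 and 1448 CPM (-2.07 ± 0.13, adjusted p = 1.31e-11). Members lay below both gates for these 3 genes. Dpp4, a protease of fascial and papillary fibroblasts, passed against the mean (-0.39 ± 0.13, adjusted p = 0.0394) but had 343 and 272 CPM in members, above the 261 and 242 CPM of C7 nuclei, where it did not pass (adjusted p = 0.311). Complement and chemokine genes of fibroblasts were lower in 5 of 12 tested cases (6.11% over all genes tested) and higher in none. Il6st, the shared receptor chain of interleukin-6 cytokines, had 155 and 131 CPM against 209 and 214 and against 280 and 275 CPM (-0.77 ± 0.16), and the complement inhibitor gene Serping1 136 and 109 CPM against 174 and 192 and against 202 and 257 CPM (-0.74 ± 0.18). With DESeq2 none of the 26 complement and chemokine genes it tested passed and 4 of 16 fascia genes did, whereas 9 of 22 papillary genes still passed as higher.

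**Figure D3:**
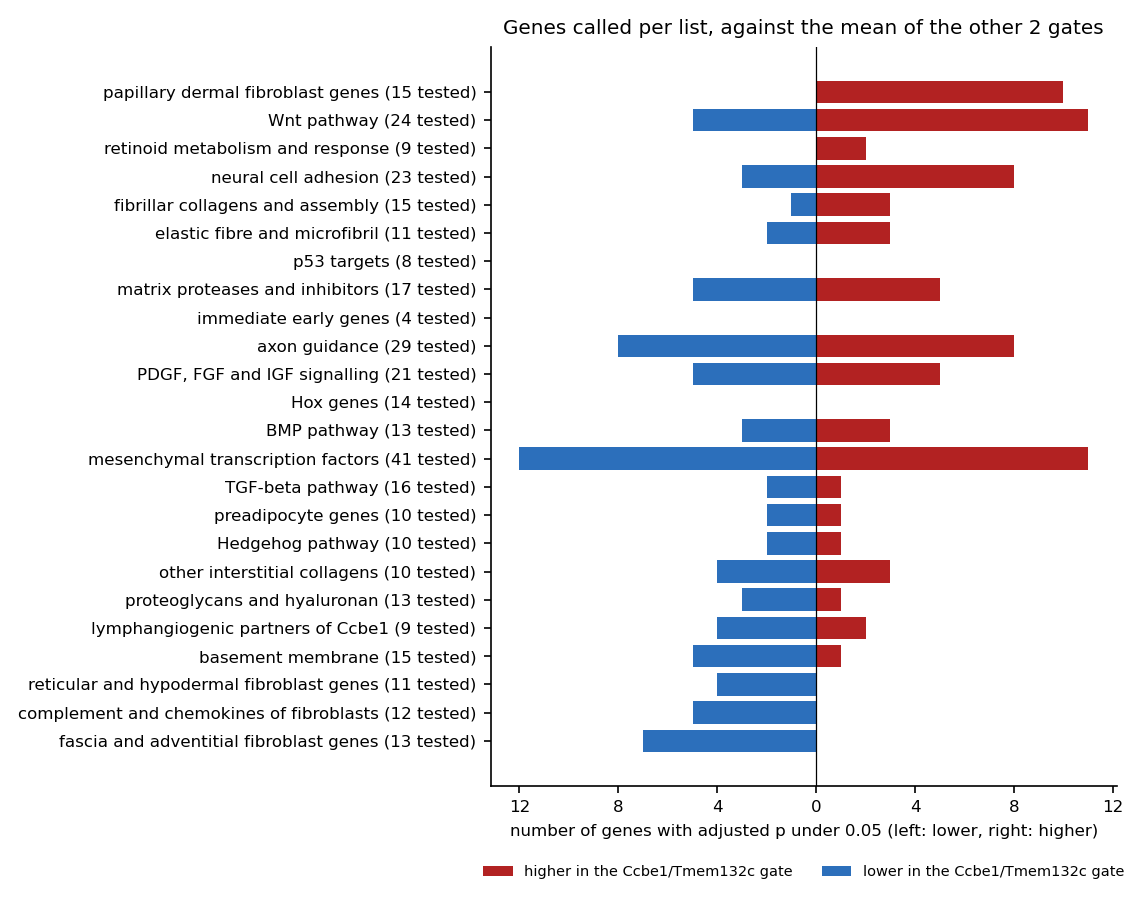
Number of genes per list that passed (adjusted p under 0.05) as higher in members (red, right) or lower (blue, left) against the mean of the C7 and Spag17/Gpc3 gates, with the number tested in brackets and lists ordered by the share higher minus the share lower. The papillary list has 10 genes higher and 0 lower at the top, and the fascia list 0 higher and 7 lower at the bottom.

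Matrix genes did not differ as a block. The main fibrillar collagens were level with C7 nuclei and above Spag17/Gpc3 nuclei: Col1a1, a chain of collagen I, had 3416 and 3805 CPM in members, 3430 and 4082 CPM in C7 nuclei (adjusted p = 0.656 against them) and 1276 and 1676 CPM in Spag17/Gpc3 nuclei (log2 difference 1.30 ± 0.11). Col3a1 and Col1a2 had log2 differences of -0.14 and -0.09 from C7 nuclei and 0.79 and 1.17 from Spag17/Gpc3 nuclei. Of the 15 fibrillar collagen and assembly genes tested, 3 were higher and 1 lower against the mean, and no gene was higher than in C7 nuclei. That lower gene was Loxl1, an enzyme that cross-links elastin, with 20.4 and 17.0 CPM against 93.4 and 78.4 and against 38.9 and 83.8 CPM (-2.0 ± 0.36).

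Collagens outside the fibrils split, with 3 of 10 tested higher and 4 lower. Col15a1, a collagen next to basement membranes, had 493 and 397 CPM in members, 347 and 282 CPM in C7 nuclei and 101 and 126 CPM in Spag17/Gpc3 nuclei (1.2 ± 0.15, adjusted p = 1.01e-06). Col6a6 went the other way, with 10.2 and 17.0 CPM against 63.9 and 71.3 and against 140 and 71.8 CPM (-2.67 ± 0.38). Among 15 basement membrane genes tested, Lamc3 was higher and 5 were lower. The paired collagen IV chains Col4a3 and Col4a4 were lower together. Col4a3 had 20.4 and 24.3 CPM against 203 and 206 CPM in C7 nuclei and 85.6 and 162 CPM in Spag17/Gpc3 nuclei (-2.88 ± 0.29, adjusted p = 3.52e-08), and Col4a4 35.7 and 43.8 CPM against 135 and 134 and against 179 and 221 CPM (-2.09 ± 0.23). The glypican Gpc6, a surface proteoglycan, had 551 and 450 CPM against 1821 and 1323 and against 3688 and 4375 CPM (-2.36 ± 0.13, adjusted p = 1.13e-12). Fn1, which encodes fibronectin and was named after its values were seen, had 62.9 and 107 CPM against 200 and 236 and against 373 and 407 CPM (-1.84 ± 0.18).

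Elastic fibre genes were higher in 3 of 11 tested cases and lower in 2, against 6.57% and 6.11% of all genes tested. Ltbp1, which tethers latent TGF-beta to microfibrils, had 1376 and 864 CPM in members, 386 and 321 CPM in C7 nuclei and 350 and 168 CPM in Spag17/Gpc3 nuclei (1.88 ± 0.13, adjusted p = 2.51e-11). Eln, the gene of elastin, had 624 and 623 CPM against 305 and 330 CPM in C7 nuclei (0.93 ± 0.13) but 443 and 730 CPM in Spag17/Gpc3 nuclei, where the difference did not pass (adjusted p = 0.852). Fbn1, the microfibril protein fibrillin-1, was lower than in both, with 1073 and 980 CPM against 1468 and 1320 and against 1292 and 1562 CPM (-0.48 ± 0.11). Matrix proteases and inhibitors were evenly divided, 5 higher and 5 lower of 17. Mmp16, a membrane metalloproteinase, had 61.2 and 94.9 CPM against 7.69 and 10.0 and against 23.3 and 18 CPM (2.49 ± 0.34), and Adamtsl1 had 639 and 550 CPM against 1159 and 1112 and against 1813 and 1766 CPM (-1.28 ± 0.11). Pappa, a metalloproteinase that cleaves carriers of insulin-like growth factors, is on none of the lists and was named after its values were seen. It had 230 and 397 CPM in members, 20.2 and 16.1 CPM in C7 nuclei and 15.6 and 12.0 CPM in Spag17/Gpc3 nuclei (4.19 ± 0.25, adjusted p = 6.17e-12).

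In the list of lymphatic growth factor genes around Ccbe1, 2 of 9 tested genes were higher and 4 lower against the mean of the gates. Adamts3 and Flt4, also listed, had 0 and 1 UMIs and 10 and 3 UMIs in members and did not reach the count needed for a test. Vegfc, whose processing Ccbe1 assists, had 287 and 226 CPM in members, 96.3 and 85.4 CPM in C7 nuclei and 101 and 162 CPM in Spag17/Gpc3 nuclei (1.19 ± 0.17, adjusted p = 9.2e-06). Nrp2, a co-receptor for Vegfc and class 3 semaphorins, had 347 and 289 CPM against 90.2 and 79.4 and against 109 and 53.9 CPM (1.94 ± 0.17, adjusted p = 3.02e-09). Both genes stood above the other gates in both mice. Of the 9 tested genes of that list, 4 others were lower against the mean, Angpt1, Angpt4, Vegfa and Vegfd, and none of them passed against C7 nuclei. Angpt1, a vessel-stabilising ligand, had 102 and 131 CPM in members, 113 and 135 CPM in C7 nuclei and 428 and 587 CPM in Spag17/Gpc3 nuclei.

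Growth factor genes differed in both directions. Fgfr4 had 156 CPM in members of either mouse, 14.2 and 18.1 CPM in C7 nuclei (log2 difference 3.27 ± 0.24, adjusted p = 1.95e-10) and 2 counts in Spag17/Gpc3 nuclei, a ratio of 23.1 (6.28 to 192). Fgfr2 was higher to a smaller extent, with 473 and 404 CPM against 316 and 294 and against 117 and 162 CPM (1.05 ± 0.14, adjusted p = 4.9e-06). Igf1 was lower, with 39.1 and 24.3 CPM against 75.2 and 62.3 and against 179 and 227 CPM (-1.90 ± 0.26), and so was Pdgfd, with 488 and 482 CPM against 887 and 1101 and against 957 and 1239 CPM (-1.11 ± 0.12). In the PDGF, FGF and IGF list 5 of 21 were higher and 5 lower, with a median of -0.01. Among BMP genes 3 of 13 were higher and 3 lower. Bmp4 had 66.3 and 46.2 CPM against 17.8 and 12.1 CPM in C7 nuclei (1.85 ± 0.31, adjusted p = 1.12e-04). Bmp5 had 68.0 and 34.1 CPM against 4.05 and 1.00 CPM in C7 nuclei (4.09 ± 0.47) and 7.78 and 18 CPM in Spag17/Gpc3 nuclei, where it did not pass (adjusted p = 0.0964). Chrdl1, a secreted BMP antagonist, had 6.80 and 2.43 CPM against 272 and 156 CPM in Spag17/Gpc3 nuclei and did not pass against the 14.6 and 12.1 CPM of C7 nuclei (adjusted p = 0.170).

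Tgfb2 is a case where the mean of the gates hid opposite differences. It had 333 and 375 CPM in members, below the 467 and 493 CPM of C7 nuclei (-0.49 ± 0.12, adjusted p = 0.00631) and above the 117 and 120 CPM of Spag17/Gpc3 nuclei (1.59 ± 0.23, adjusted p = 9.85e-06). Postn, the TGF-beta-responsive matrix protein periostin, was lower than in both, with 22.1 and 26.8 CPM against 129 and 104 and against 93.4 and 95.8 CPM (-2.17 ± 0.30). In the Hedgehog list, Gli3 had 519 and 494 CPM against 325 and 225 and against 202 and 102 CPM (1.30 ± 0.15), while the receptor and target gene Ptch1 had 8.50 and 7.30 CPM against 29.9 and 21.1 and against 38.9 and 65.8 CPM (-2.26 ± 0.50). Of 9 retinoid genes tested, the retinoic acid receptor gene Rarb and the retinoic acid-degrading enzyme gene Cyp26b1 were higher. Rarb, itself a textbook target of retinoic acid, had 502 and 474 CPM in members, 73.6 and 50.2 CPM in C7 nuclei and 85.6 and 71.8 CPM in Spag17/Gpc3 nuclei (2.76 ± 0.16, adjusted p = 1.84e-12). Cyp26b1 had 76.5 and 94.9 CPM against 25.5 and 12.1 CPM in C7 nuclei (2.00 ± 0.30) and 3 counts in Spag17/Gpc3 nuclei.

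Guidance and adhesion genes better known from neurons changed in both directions. In the axon guidance list 8 of 29 were higher and 8 lower. Sema3a, a secreted repellent, had 2006 and 1919 CPM in members, 446 and 529 CPM in C7 nuclei and 443 and 473 CPM in Spag17/Gpc3 nuclei (2.04 ± 0.10, adjusted p = 2.39e-13). Robo2, a receptor for Slit ligands, had 1325 and 1319 CPM against 366 and 392 and against 140 and 150 CPM (2.48 ± 0.12, adjusted p = 1.16e-13). Its relative Robo1 differed only from the smaller gate, with 1075 and 1275 CPM in members, 1204 and 1112 CPM in C7 nuclei (adjusted p = 0.899) and 272 and 311 CPM in Spag17/Gpc3 nuclei. Sema3d was lower, with 86.7 and 80.3 CPM against 155 and 170 and against 514 and 515 CPM (-1.79 ± 0.17). In the neural adhesion list 8 of 23 were higher and 3 lower. Lsamp had 1343 and 1263 CPM against 265 and 247 and against 327 and 575 CPM (1.90 ± 0.12), and Negr1, of the same protein family, 935 and 752 CPM against 326 and 309 and against 109 and 120 CPM (2.12 ± 0.13). Opcml, which also belongs to that family, was lower, with 1971 and 2425 CPM against 3175 and 3591 and against 2809 and 3657 CPM (-0.61 ± 0.09).

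Mesenchymal transcription factors were likewise divided, with 11 of 41 higher and 12 lower. Besides Trps1, Twist2, a regulator of dermal identity, had 230 and 219 CPM in members against 145 and 133 and against 85.6 and 95.8 CPM (0.97 ± 0.17). Tcf4 had 1296 and 1131 CPM against 750 and 686 and against 879 and 880 CPM (0.59 ± 0.10). Ebf1, a factor of adipogenic and stromal cells, was lower, with 1532 and 1511 CPM against 2651 and 2811 and against 3789 and 4243 CPM (-1.14 ± 0.09). Zfhx4 had 131 and 119 CPM against 392 and 421 and against 864 and 1209 CPM (-2.38 ± 0.15), Nfib 384 and 343 CPM against 795 and 809 and against 1089 and 1335 CPM (-1.45 ± 0.12), and Foxp1 272 and 328 CPM against 631 and 572 and against 1152 and 1311 CPM (-1.56 ± 0.12). Preadipocyte genes were higher in 1 of 10 tested cases (Adam12) and lower in 2. Without the Cadps cluster Adam12 no longer passed (adjusted p = 0.0739), nor without both small clusters (adjusted p = 0.0791). Lpl, the lipoprotein lipase gene, had 27.2 and 51.1 CPM against 89.4 and 129 and against 187 and 239 CPM (-2.01 ± 0.24). The TGF-beta list had 1 of 16 higher and 2 lower, the Hedgehog list 1 of 10 higher and 2 lower, and the proteoglycan list 1 of 13 higher and 3 lower. Over all genes tested 6.57% were higher and 6.11% lower, so the single higher genes of these lists are near that share. No member of the lists of 14 Hox genes, 8 p53 targets or 4 immediate early genes passed against the mean of the gates with edgeR or with DESeq2. At an unadjusted p under 0.05 edgeR's test gave 4, 0 and 1 of them, which does not show that they were equal. Hoxa9 was lower than in C7 nuclei (-0.76, adjusted p = 0.0444) and Hoxb6 lower than in Spag17/Gpc3 nuclei (-1.68, adjusted p = 0.0351), both named after their values were seen. Against the mean, 1 Hox gene passed as lower in 3 of the 14 alternatives and 1 immediate early gene in 1. Malat1, an abundant nuclear RNA, did not pass against the mean (0.08 ± 0.07, adjusted p = 0.589) or C7 nuclei (-0.21, adjusted p = 0.0896), but was higher than in Spag17/Gpc3 nuclei (0.36 ± 0.08, adjusted p = 0.00175), and its part in the differences from that gate was not tested.

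The papillary and Wnt sums were higher the more gate genes a barcode held, including outside the gate. These sums are for barcodes with fewer than 2 genes of each other set. The papillary sum was 1530 and 1419 CPM with no gate gene, 2007 and 1771 CPM with 1, 2733 and 2380 CPM with 2, 2803 and 2665 CPM with 3, and 3860 and 3472 CPM with 4 or more. The Wnt sum followed the same order, from 1504 and 1479 CPM with none to 3606 and 4397 CPM with 4 or more. The fascia sum had no such order, with 1784 and 2121 CPM with none and 1853 and 2136 CPM with 4 or more, and the reticular sum went from 381 and 374 to 262 and 267 CPM. Barcodes with at least 2 gate genes that were shut out for also carrying at least 2 C7 genes, 83 and 24 in number, held 1924 and 1808 CPM of papillary genes, between members and C7 nuclei. Depth moved with the number of gate genes, from medians of 723 and 429 UMIs with none to 2769 and 1623.5 UMIs with 4 or more, and its part in the order was not tested.

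**Figure D4:**
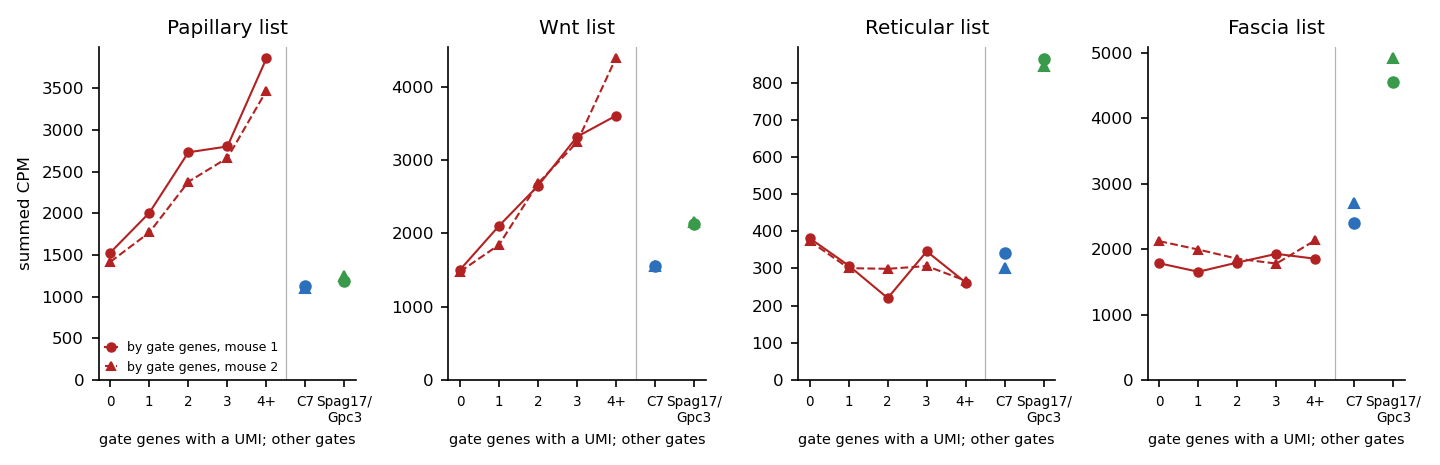
Summed CPM of the papillary, Wnt, reticular and fascia lists in barcodes with 0, 1, 2, 3 and 4 or more gate genes (red, solid with circles for mouse 1, dashed with triangles for mouse 2), beside C7 nuclei (blue) and Spag17/Gpc3 nuclei (green). The papillary sum goes from 1530 and 1419 CPM at 0 gate genes to 3860 and 3472 CPM at 4 or more, while the fascia sum stays between 1654 and 2136 CPM.

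The members did not form a single cluster when the gate genes were left out. Clustering all kept unwounded barcodes on the other genes gave 20 clusters, described here without a test. Most members, 365 of 629, lay in a cluster led by Pappa, Rarb, Slc27a6 and Adcy1, which also held 242 C7 nuclei and 7 Spag17/Gpc3 nuclei, and members were 19.7% of its 1849 barcodes. A second set of 78 members, 41 and 37 per mouse, made up 67.2% of a cluster of 116 barcodes led by Cadps, Tmem132d, Elfn2, Kcnk2, Sphkap and Igfbp2, in which 2 of the 8 papilla markers were at least 2-fold above the other clusters. A small set of 16 members, 10 and 6 per mouse, lay in a cluster led by Gpc5, Slc26a7, Grid1, Slc12a1 and Lef1, in which 3 of the 8 papilla markers were at least 2-fold above the other clusters. It is left unnamed. Another 87 members lay in 10 clusters that carry markers of other cell types.

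The sets differed in the genes that led the comparison. Of the Cadps UMIs of all members, 103 of 106 in mouse 1 and 87 of 95 in mouse 2 came from the Cadps cluster, as did 92 of 107 and 34 of 41 for Tmem132d and 16 of 20 and 13 of 16 for Igfbp2. Cdh6 was shared, with 23 of 54 and 19 of 36 UMIs there and most of the rest in the Pappa cluster. For Lef1, 25 of 55 and 5 of 9 UMIs came from the 10 and 6 members of the Gpc5 cluster. Pappa itself was spread the other way, with 105 of 135 and 133 of 163 UMIs in the Pappa cluster. With barcodes of the Cadps cluster left out of all gates, 471 genes were higher and 461 lower, and Cadps, Elfn2, Gldn, Igfbp2 and Tmem132d no longer reached the count needed for a test.

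The papillary difference was smaller without the small clusters, although most of its calls held. The papillary sum was 2432 and 2437 CPM in members of the Pappa cluster, 4594 and 3728 CPM in those of the Cadps cluster and 11656 and 6241 CPM in those of the Gpc5 cluster, against 1130 and 1103 CPM in C7 nuclei. With the Cadps and Gpc5 clusters left out of all gates, 9 of 14 tested papillary genes and 10 of 20 tested Wnt genes were higher, 4 Wnt genes were lower, 444 genes in all were higher and 429 lower, and Lef1 had too few counts to test. The median log2 difference of the papillary list then went from 2.06 to 1.25, and it was 1.79 without the Cadps cluster alone, while that of the Wnt list went from 0.57 to 0.56. Papilla markers summed to 74.5 and 87.9 CPM in members of the Pappa cluster, 198 and 395 CPM in those of the Cadps cluster and 239 and 347 CPM in those of the Gpc5 cluster, and their part in these differences was not tested. The log2 difference of Dkk2 went from 2.10 to 1.10 and that of Col23a1 from 2.51 to 1.30, both still passing (adjusted p = 0.00589 and 0.0112). Trps1 kept 2.14 and Ror1 1.66. Barcodes of the Pappa cluster that were not members, 840 and 644 in number, held 1993 and 2017 CPM of papillary genes, below the members of that cluster and above C7 nuclei.

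F13a1, the gene of coagulation factor XIII-A and a marker of dermal macrophages, was high in the Cadps cluster. The other macrophage markers given here were far below F13a1 there or at 0. It had 287 and 328 CPM in all members against 105 and 113 CPM in C7 nuclei (1.45 ± 0.17), and 122 of 169 and 113 of 135 of its UMIs came from the Cadps cluster. Within that cluster members held 1507 and 2128 CPM of F13a1, against 59.1 and 28.0 CPM in members of the Pappa cluster. In those members Cd163 and Cd74 had no count in either mouse, Csf1r had 1 UMI in each mouse, Mrc1 had 61.7 and 169 CPM and Adgre1 24.7 and 75.3 CPM. All macrophage markers summed to 1618 and 2391 CPM there, most of it F13a1, and fibroblast markers reached 13003 and 11541 CPM. In members of the Pappa cluster all macrophage markers summed to 164 and 55.9 CPM. The Mrc1 and Adgre1 levels of the Cadps cluster each exceeded that sum in mouse 2 and lay below it in mouse 1. Mrc1, the macrophage mannose receptor, did not pass between the gates (-0.24, adjusted p = 0.612).

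**Figure D5:**
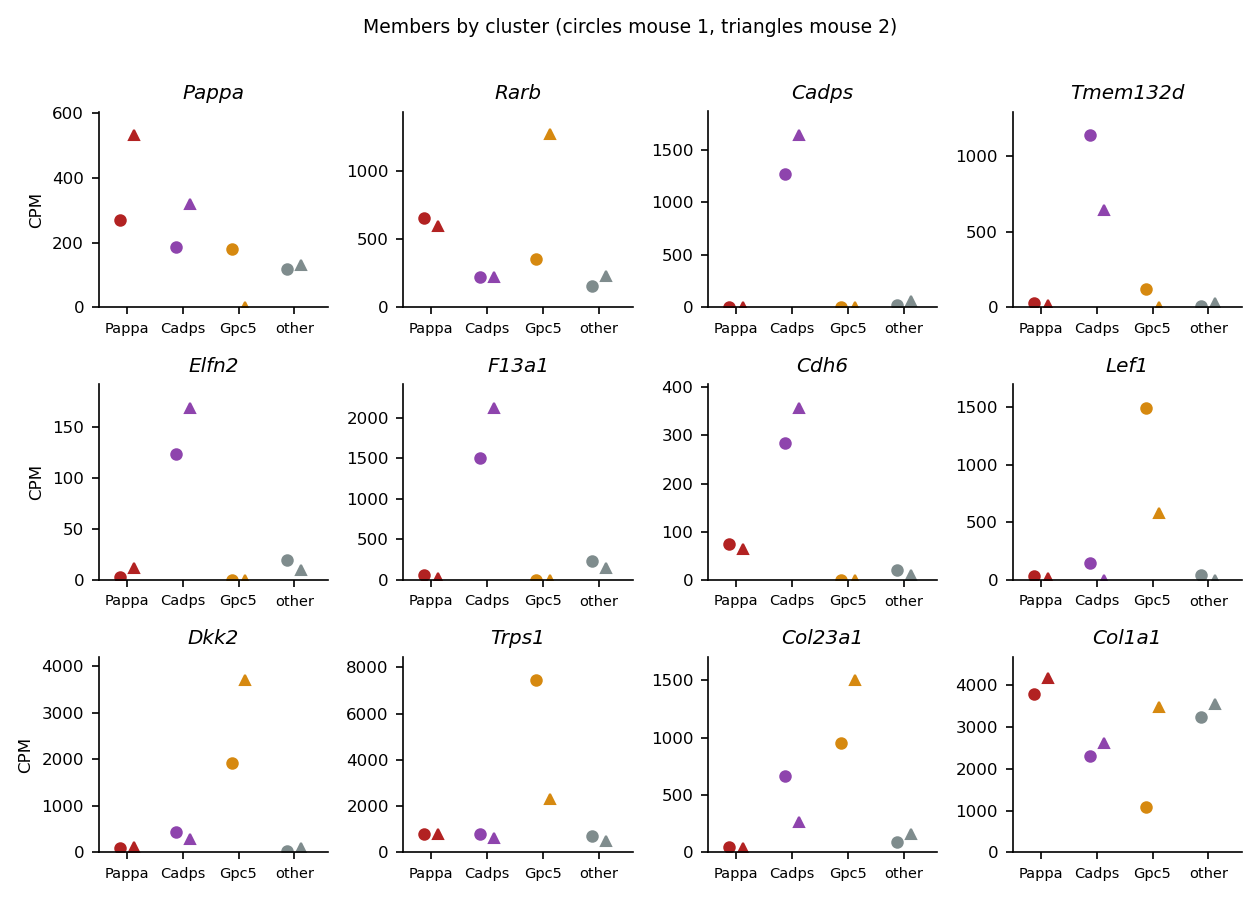
CPM of 12 genes in members of the Pappa cluster (red), the Cadps cluster (purple), the Gpc5 cluster (ochre) and all other clusters (grey), with circles for mouse 1 and triangles for mouse 2 and a separate axis for each gene. Cadps, Tmem132d, Elfn2 and F13a1 are high in the Cadps cluster, with F13a1 at 1507 and 2128 CPM there against 59.1 and 28.0 CPM in the Pappa cluster, and Lef1, Dkk2, Trps1 and Col23a1 are highest in the 16 members of the Gpc5 cluster.

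Clustering the 629 members alone gave 5 sub-clusters, of 220, 134, 232, 18 and 25 nuclei, and the number depended on the resolution, with 4 at 0.3 and 10 at 1. At 1, a sub-cluster of 57 nuclei had Flt4, Reln and Prox1, markers of lymphatic endothelium, among its leading genes. At 0.3 a single sub-cluster of 472 nuclei stood in place of the 2 large ones. Of the 2 large ones, that of 220 was led by Mecom and Reln and that of 232 by Mylk4, Far2 and Fa2h, with Ttn, the muscle gene of titin, next. Far2 and Soat1, both on the sebocyte marker list, were among the leading genes of the 232. Soat1 had 44.3 and 401 CPM there against 25.2 and 32.6 CPM in other members, so the mice differed. The 2 large sub-clusters differed in depth, with medians of 1991 and 918.5 UMIs. Their skeletal muscle transcripts were 477 against 3080 CPM, and they held 2389 and 2025 CPM of papillary genes. The sub-cluster of 134 was led by Cadps and Sphkap and held 3848 CPM of papillary genes, and that of 18 by Slc12a1, Cdh2 and Gpc5 with 9119 CPM. The sub-cluster of 25 nuclei, 11 and 14 per mouse, had Bank1, Ctss and Cd209f, genes of myeloid and B cells, among its leading genes and held 2263 CPM of macrophage markers beside 11523 CPM of fibroblast markers, with 6 of its nuclei among the highest doublet scores. Whether these are doublets was not tested. Leaving out the nuclei of highest doublet score, 12 and 13 members among them, gave 475 genes higher and 436 lower.

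In the wounded libraries 309 (13%) and 415 (9.58%) of kept barcodes met the same rule, and they do not resemble the members of intact skin. They held 661 and 899 CPM of fibroblast markers. Malat1 made up 0.0590% and 0.174% of their UMIs, against 9.66% and 9.87% in unwounded members, and 1466 olfactory and vomeronasal receptor genes, which belong to sensory tissue, reached 7752 and 6884 CPM in them against 84.7 and 138 CPM. The gate genes are long, from 189 to 791 kb. In wounded libraries their levels were 0.828 to 1.61 times what their length would give at the density of the receptor genes, against 2.96 to 62.5 times in unwounded libraries. The wounded barcodes were therefore not compared with the members.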

How the data were processed

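Nuclei from mouse back skin were profiled with the droplet-based 10x 3′ chemistry. The authors deposited UMI counts per gene and barcode, made with Cell Ranger 5.0.1 on GRCm38 per the submitters' processing notes; whether intronic reads and strand were counted is not given in the sources used here. Kept barcodes had 200 or more detected genes, with mitochondrial genes giving no more than 5% of counts. The members, the gate genes, the 24 gene lists and the alternatives were chosen with earlier results of these data known. The C7 and Spag17/Gpc3 gates were formed by symmetry with the members' rule.

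UMIs were summed per mouse and gate without the 18 gate genes and tested with edgeR 4.0.16 in R 4.3.3 (quasi-likelihood, TMM factors, filterByExpr, mouse as block, Benjamini-Hochberg at 0.05). Every gate of a mouse comes from the same library, so the block pairs the sums by animal. With 2 mice the p-values cover only the spread between these samples. Scripts were tested on simulated data. Named genes were those past the threshold, at 20 CPM or more on the higher side and outside both other gates in both mice, the 12 of largest log2 difference per direction, leaving out gate genes, unnamed gene models, mitochondrial and ribosomal protein genes, and up to 4 genes of smallest p per list. Other list members, Mitf, Pappa, F13a1, Fn1 and Malat1 were named after their values were seen. Clusters came from scanpy 1.11.5 and leidenalg 0.10.2 (2000 variable genes, 30 components, 15 neighbours, resolution 1; members alone 15 components, resolution 0.5). A doublet caller marked no unwounded barcode by its own threshold, so no doublets were removed in the values given. Wilson intervals, floors and count ratios cover counting error only. Coordinates are from GENCODE on the same build. Of 113 genes named by the rule, 53 overlap a gene on the opposite strand and 37 on the same strand, so reads between such neighbours may be split. C1ra and C1s1 also have close copies.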

Additional observations from a re-analysis of the deposited data

How the results depend on the processing

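Of 113 genes named by the rule, all kept their call with RLE factors, with at least 400 genes per barcode and without the highest doublet scores. None of the 96 past the threshold changed direction in the alternatives that tested it, and some alternatives did not test every named gene. Sign changes of the other named genes were counted only where an alternative called them. DESeq2 gave 95 the same call and took it from 16, among them Lamc3 (adjusted p = 0.783), Ptch1, Tgfb2 and Eln. It gave 224 genes higher and 209 lower against the mean of the gates, 158 and 102 against C7 nuclei, and 230 and 278 against Spag17/Gpc3 nuclei, and 2 named genes, Elfn2 and Gldn, had no adjusted p. Sums thinned to the smallest gave 240 and 246, 152 and 130, and 294 higher against Spag17/Gpc3 nuclei, with fewer genes tested (3223). With at least 3 own gate genes in every gate, 271 were lower against the mean and 303 against Spag17/Gpc3 nuclei. With no gene of another gate allowed, 248 were higher and 272 lower against Spag17/Gpc3 nuclei. Without the replicate block, which pairs the sums of a mouse, 233 genes were lower than in C7 nuclei, and Boc, Col3a1 and Sdc2 lost their call. Apart from fewer genes or barcodes, the cause was not tested. Over 14 alternatives 8 to 12 papillary genes were higher and none lower, 7 to 12 Wnt genes were higher and 2 to 7 lower, and 4 to 8 fascia genes were lower. The alternatives without the Cadps cluster, the Gpc5 cluster or clusters of other cell types were added after the data were seen. Leaving out a mouse leaves no residual degrees of freedom and so no test. The log2 difference then moved by more than 1 SD between the mice in 42 named genes without mouse 1 and 32 without mouse 2. The members' share was 1.65% and 1.01% with at least 3 gate genes, 5.64% and 6.65% with at least 400 genes per barcode, and 2.13% and 2.96% after thinning. The small Spag17/Gpc3 sums limit what can be seen at low levels, with floors of 23.2 and 17.8 CPM.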
